A study of Mus musculus with 15 samples.

Results

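Eyecups of mice homozygous for the FUN025 mutation of Tmem135 (FUN025/FUN025) were compared with eyecups of mice that carried it on a single chromosome (FUN025/+), so that the comparison shows what differed when a second mutant allele was present. The libraries were chosen by the genotype in their labels and by nothing measured, which gave 6 FUN025/+ and 5 FUN025/FUN025 libraries, 11 of the 15 libraries in the series. All 11 mice carried the mutation, were 2.5 months old and came from colonies on the C57BL/6J background that use both sexes. For each mouse the posterior eyecups, which hold the retinal pigment epithelium (RPE), the choroid and the sclera once the neural retina has been taken away, were combined, frozen and sequenced as 1 poly(A)-selected library. The mutation sits in every cell of these mice, so the genotype itself points to no cell type. The 4 WT libraries entered no test, and their levels are given only as a description. They held 18094977 to 20029919 counts and the mutant libraries 10903183 to 15038383, so WT libraries differed in depth as well as genotype.

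TMEM135 is a membrane protein of mitochondria and peroxisomes that has been tied to mitochondrial fission and to lipid handling. The RPE lies against the photoreceptors, engulfs the lipid-rich tips that they shed every day, and makes, stores and exports fatty acids and cholesterol. In most cells the supply of these lipids is set by the sterol regulatory element-binding proteins (SREBPs), transcription factors that are held in the endoplasmic reticulum by INSIG proteins when sterols are plentiful and that switch on the genes of fatty acid and cholesterol synthesis when they are released. The liver X receptors (LXRs) respond to oxidised sterols, switch on Srebf1 and the genes of cholesterol efflux, and in many tissues also Scd1 and Lpcat3.

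Gene levels are expressed as CPM (reads counted per 1000000 in a library, scaled between libraries), and counts were tested for the 17634 of 55421 listed genes that reached 1 CPM in at least 5 of the 11 libraries. The depths of both groups overlapped, and a level of 3 counts was 0.199 to 0.275 CPM, which is the limit that counting alone sets. On the first principal component of all tested genes, which held 25.3% of the variance, the FUN025/FUN025 libraries lay between -12.5 and 9.35 and inside the span of the FUN025/+ libraries, from -30.6 to 33.6. RPE markers defined the tissue, with 17871 to 23507 CPM in FUN025/+ and 17781 to 22431 CPM in FUN025/FUN025 libraries summed over 12 genes. Rod markers, which belong to the neural retina, were found in every library and summed to 201 to 836 CPM in FUN025/+ and 202 to 554 CPM in FUN025/FUN025 libraries. Xist exceeded 100 CPM in 3 of 6 FUN025/+ and 2 of 5 FUN025/FUN025 libraries, so both sexes were present in both groups. That split is not the one the study lists for the sequenced mice, the labels give no sex per library, and the cause of the mismatch was not tested.

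Tmem135 itself (ENSMUSG00000039428, chr7:89139714-89404222, minus strand) lay from 65.9 to 86.1 CPM (median 74.4) in FUN025/+ libraries. Its level was 85.2, 89.2, 93.9, 83.0 and 91.0 CPM in the FUN025/FUN025 libraries and 59.5 to 66.4 CPM in WT libraries. The ranges of both mutant groups overlapped, and the difference did not pass edgeR's quasi-likelihood test with Benjamini-Hochberg adjustment (log2 fold change 0.24 ± 0.063 SE, adjusted p = 0.169). A total read count does not show how the transcript was spliced, so this level is no check of the genotype labels. Of 154 other genes tested within 10 megabases of Tmem135, 0 passed by that test and by limma voom, 1 by DESeq2's Wald test, and 10 had an unadjusted p under 0.05. Of all 17634 genes tested, 0.567% passed by edgeR and 1108 had an unadjusted p under 0.05.

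An adjusted p under 0.05 by edgeR's quasi-likelihood test was reached by 100 genes, or 0.567% of the genes tested. Of these, 63 were higher (0.357% of the genes tested) and 37 lower (0.21%) in FUN025/FUN025 eyecups. That balance depended on the fit, with 91 higher and 76 lower by DESeq2's Wald test and 53 higher and 86 lower with macrophage markers as a covariate. The count of lower genes was 14 without FUN025/FUN025 replicate 1 and 18 to 24 without any 1 of FUN025/+ replicates 2, 3, 5 and 6 or FUN025/FUN025 replicates 2 to 4. Changes were mostly small: 58 were under 1.5-fold, 24 between 1.5- and 2-fold, and 18 beyond 2-fold, of which 16 were rises and 2 were falls. The median size of the log2 fold change was 0.52 among the called genes and 0.063 among all genes tested. In 94 of the 100 genes no FUN025/FUN025 library overlapped a FUN025/+ library, as was the case in 1.17% of all genes tested. All but 7 of the 100 were protein-coding, 92 reached 1 CPM in all 11 libraries, and 5 passed the filter only through the FUN025/FUN025 libraries. Chromosome 7, which carries Tmem135, held 6 of the called genes among its 1374 tested genes.

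**Figure D1:**
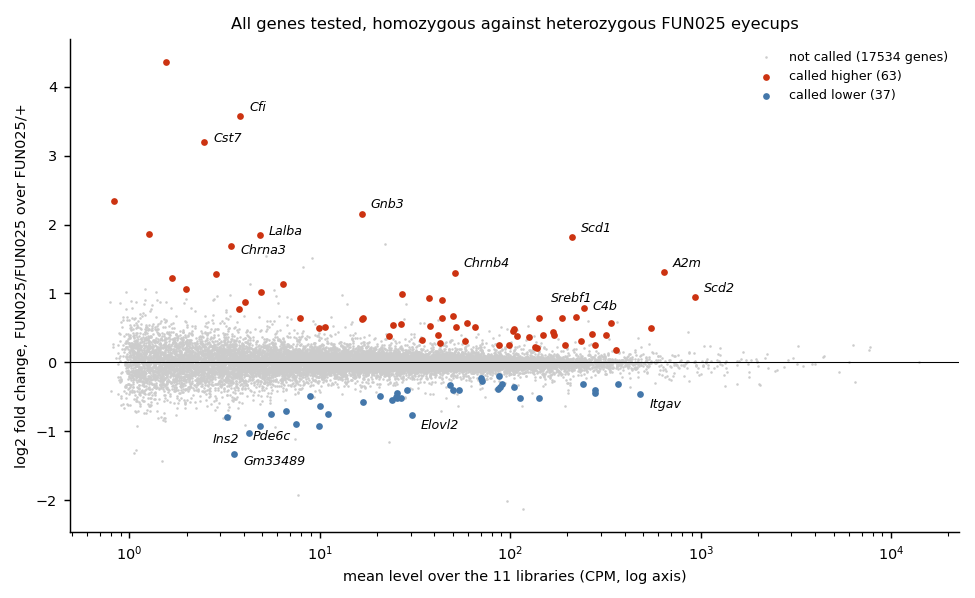
Log2 fold change of FUN025/FUN025 over FUN025/+ eyecups against the mean level over the 11 libraries (CPM, log axis) for each of the 17634 genes tested. The 63 genes called higher are red, the 37 called lower are blue and the others grey, and the rises reach further from 0 than the falls.

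Among the abundant genes that rose were stearoyl-CoA desaturases, the enzymes that put the first double bond into saturated fatty acids. Scd1 (ENSMUSG00000037071, chr19:44394455-44407879, minus strand) lay from 74.9 to 111 CPM (median 101) in FUN025/+ libraries and at 352, 319.8, 305, 381 and 366 CPM in FUN025/FUN025 libraries. The groups lay far apart, and Scd1 had the smallest adjusted p of all genes (log2 fold change 1.81 ± 0.091 SE, adjusted p = 7.57e-07). Its level in WT libraries was 82.2 to 111 CPM. Scd2 (ENSMUSG00000025203, chr19:44293674-44306864, plus strand), the desaturase of brain and many other tissues, lay from 566 to 715 CPM (median 664) in FUN025/+ and at 1202, 1221, 1302, 1272 and 1315 CPM in FUN025/FUN025 libraries. It was higher in all 5 of these libraries than in any FUN025/+ library (log2 fold change 0.95 ± 0.063 SE, adjusted p = 1.66e-06), with 481 to 531 CPM in WT libraries. The remaining stearoyl-CoA desaturases were close to the limit of the filter and did not pass, with Scd3 at 1.65 ± 0.492 against 2.03 ± 0.216 CPM, log2 fold change 0.29 ± 0.21 SE, adjusted p = 1, and Scd4 at 1.25 ± 0.383 against 1.68 ± 0.343 CPM, log2 fold change 0.41 ± 0.24 SE, adjusted p = 0.965.

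Both front-end desaturases of polyunsaturated fatty acid synthesis also rose. Fads1, which acts late in that pathway, lay from 249.9 to 294 CPM (median 285) in FUN025/+ and at 391, 394, 419, 428 and 422 CPM in FUN025/FUN025 libraries, and the groups did not overlap (log2 fold change 0.57 ± 0.052 SE, adjusted p = 2.78e-05). Fads2, which opens that pathway, lay from 203 to 261 CPM (median 234) in FUN025/+ and at 285, 301, 319, 317 and 335 CPM in FUN025/FUN025 libraries, again without overlap (log2 fold change 0.41 ± 0.059 SE, adjusted p = 0.0021). Elovl2, which elongates the long polyunsaturated fatty acids on the way to docosahexaenoic acid, moved the other way. It lay from 30.3 to 41.4 CPM (median 38.3) in FUN025/+ libraries but at 20.2, 20.002, 22.9, 21.8 and 25.9 CPM in FUN025/FUN025 libraries, every one of them below the lowest FUN025/+ library (log2 fold change -0.76 ± 0.089 SE, adjusted p = 0.000282). Levels of Elovl2 in WT libraries were 24.1 to 32.8 CPM, reaching into the ranges of both mutant groups. Of 22 tested genes for desaturation and elongation, these 5 passed and 17 did not, while 0.567% of all genes tested passed, and the median log2 fold change of the list was 0.05 beside -0.00052 for all genes tested. Elovl5, an elongase of polyunsaturated fatty acids, was at 116 ± 6.27 against 127 ± 8.06 CPM, log2 fold change 0.13 ± 0.051 SE, adjusted p = 0.607, and Elovl6, which elongates saturated fatty acids, at 71.4 ± 6.83 against 68.5 ± 5.96 CPM, log2 fold change -0.062 ± 0.068 SE, adjusted p = 1. Among the 17 that did not pass, 3 had an unadjusted p under 0.05, and log2 fold changes ran from -0.09 to 0.41.

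**Figure D2:**
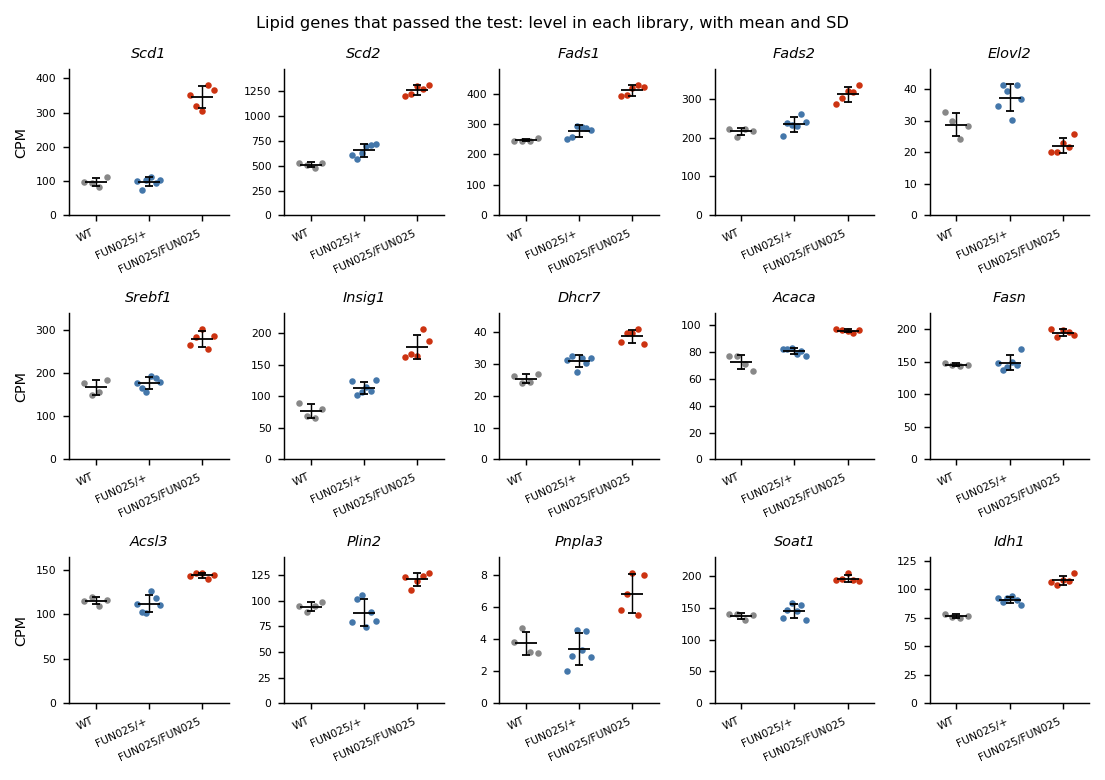
Level in each library (CPM) of the 15 genes on lipid lists that passed the test, with the mean and SD of 4 WT (grey), 6 FUN025/+ (blue) and 5 FUN025/FUN025 (red) libraries, every axis starting at 0. In each panel the red points stand apart from the blue ones, above them in 14 genes and below them in Elovl2.

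Of 11 tested genes for fatty acid synthesis, Acaca and Fasn rose. Acaca, acetyl-CoA carboxylase, which commits acetyl-CoA to fatty acid synthesis, lay from 77.4 to 83.4 CPM (median 81.7) in FUN025/+ and at 97.4, 96.9, 95.7, 94.6 and 96.2 CPM in FUN025/FUN025 libraries (log2 fold change 0.25 ± 0.036 SE, adjusted p = 0.00262). All its homozygous libraries lay above the FUN025/+ range, although 33.5% of its sequence in stretches of 31 bases also occurs in other genes. Fasn, the fatty acid synthase, lay from 137 to 169.7 CPM (median 147) in FUN025/+ and at 200.4, 188, 199, 196 and 192 CPM in FUN025/FUN025 libraries, without overlap (log2 fold change 0.39 ± 0.051 SE, adjusted p = 0.000806). Idh1, a cytosolic enzyme that makes the NADPH such synthesis uses, lay from 86.4 to 93.8 CPM (median 91.5) in FUN025/+ and at 107, 104, 108, 108 and 114 CPM in FUN025/FUN025 libraries and was the single called gene among 8 tested for NADPH supply (log2 fold change 0.25 ± 0.039 SE, adjusted p = 0.00496). In the list of fatty acid synthesis, 10 of 11 tested genes were higher, 2 passed, beside 0.567% of all genes tested, and the median log2 fold change was 0.15. Acly, which makes cytosolic acetyl-CoA from citrate, was at 164 ± 11.1 against 192 ± 20.9 CPM, log2 fold change 0.23 ± 0.067 SE, adjusted p = 0.286, and Me1, the malic enzyme, at 202 ± 19.6 against 209 ± 17.4 CPM, log2 fold change 0.048 ± 0.07 SE, adjusted p = 1, and both fell short of the threshold.

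Srebf1, which encodes the SREBP that drives fatty acid genes, lay from 155 to 192 CPM (median 178) in FUN025/+ and at 265, 284, 302, 255 and 286 CPM in FUN025/FUN025 libraries. The groups did not overlap (log2 fold change 0.66 ± 0.059 SE, adjusted p = 2.72e-05), and the WT libraries lay at 148 to 183 CPM. Insig1, a sterol-sensing anchor of SREBPs and itself an SREBP target, lay from 102 to 126 CPM (median 111) in FUN025/+ and at 162, 167, 163, 206 and 188 CPM in FUN025/FUN025 libraries (log2 fold change 0.64 ± 0.072 SE, adjusted p = 0.000225). WT libraries held 65.3 to 89.8 CPM of Insig1, below every FUN025/+ library. The other 5 genes of SREBP processing did not pass. Srebf2, whose product drives sterol genes, was at 176 ± 12.2 against 197 ± 21.3 CPM, log2 fold change 0.17 ± 0.067 SE, adjusted p = 0.634. Scap, the escort of SREBPs to the Golgi, was at 145 ± 5.81 against 132 ± 8.39 CPM, log2 fold change -0.14 ± 0.047 SE, adjusted p = 0.483, with an opposite sign.

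Promoter windows of these genes are shown because Srebf1 and Fasn both match an element that was searched. The RefSeq table used (build GRCm38.p6) holds 32851 windows of 300 bases, from 250 before to 50 after a start site, and gives at least 1 for 68 of the 100 called genes and for 12 of the 15 called genes on lipid lists. It holds none for Scd1, Scd2 and Fads1. The letters GGTTACTNNCGGTCA, a direct repeat in the form known for LXR elements, partly from the Srebf1 promoter itself, were searched on both strands. The match in Srebf1 was therefore built into the search. A long, nearly fixed string is rare by its length, so the count of matches does not show how common LXR elements are. These letters are also no evidence of a cause, which was not tested. The letters occur in 3 windows, or 0.00913% of all, and these belong to Srebf1, Fasn and Abca1, the cholesterol efflux pump. The table holds 3 windows for Srebf1, and the match lies in 1 of them. It begins 182 bases before that start of Srebf1, 225 before that of Fasn and 67 before that of Abca1. The sterol regulatory element form TCACNCCAC occurs in 1.24% of the windows and in 0 of the 12 lipid genes, among the called genes only in Chrnb4. The E-box CACGTG, a form that SREBP-1 also binds, occurs in 7.15% of all windows, or in a window of 8.09% of all genes, and in 8 of the 68 called genes with a window, among them Insig1, Dhcr7 and Plin2. The motifs do not overlap each other in the windows shown, and a match of letters is a description and not a site of binding. The 250 bases before each start are printed, with matches to the direct repeat or the E-box in capitals.
Srebf1 promoter, chr11:60210472-60210721, minus strand: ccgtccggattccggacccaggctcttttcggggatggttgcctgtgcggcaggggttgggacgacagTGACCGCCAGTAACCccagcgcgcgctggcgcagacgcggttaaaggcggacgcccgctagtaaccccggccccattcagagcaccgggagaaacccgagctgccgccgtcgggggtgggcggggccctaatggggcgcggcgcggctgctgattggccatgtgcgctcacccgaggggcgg
Fasn promoter, chr11:120824548-120824797, minus strand: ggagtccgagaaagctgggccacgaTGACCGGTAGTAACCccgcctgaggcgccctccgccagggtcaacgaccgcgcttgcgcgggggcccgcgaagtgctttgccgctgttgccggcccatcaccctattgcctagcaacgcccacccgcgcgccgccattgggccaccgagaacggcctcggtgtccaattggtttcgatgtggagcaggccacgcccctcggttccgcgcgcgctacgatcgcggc
Abca1 promoter, chr4:53159896-53160145, minus strand: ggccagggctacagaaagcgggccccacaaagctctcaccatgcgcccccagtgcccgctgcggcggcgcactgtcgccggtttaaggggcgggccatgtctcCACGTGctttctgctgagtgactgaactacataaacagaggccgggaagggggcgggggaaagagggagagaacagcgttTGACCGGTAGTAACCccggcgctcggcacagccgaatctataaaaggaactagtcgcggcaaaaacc
Insig1 promoter, chr5:28071162-28071411, plus strand: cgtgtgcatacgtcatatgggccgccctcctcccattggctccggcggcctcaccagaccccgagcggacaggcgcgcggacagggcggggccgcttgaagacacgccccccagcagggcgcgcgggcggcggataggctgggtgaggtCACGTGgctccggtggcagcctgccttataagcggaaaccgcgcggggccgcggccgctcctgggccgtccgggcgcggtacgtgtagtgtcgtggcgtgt

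Abca1 was at 158 ± 10.5 against 201 ± 27.7 CPM, log2 fold change 0.34 ± 0.08 SE, adjusted p = 0.104, and did not pass edgeR's quasi-likelihood test, while its promoter shares the element with the called Srebf1 and Fasn. Other genes known as LXR targets were on the list of cholesterol uptake, efflux and storage. Abcg1, another cholesterol exporter, was at 21.5 ± 2.04 against 25.2 ± 1.98 CPM, log2 fold change 0.23 ± 0.076 SE, adjusted p = 0.45, and Mylip, a ubiquitin ligase that limits cholesterol uptake, at 85.5 ± 4.58 against 97.1 ± 4.05 CPM, log2 fold change 0.18 ± 0.046 SE, adjusted p = 0.136. Neither passed edgeR's quasi-likelihood test, while DESeq2's Wald test called Abca1 and Mylip besides Soat1. In that list 14 of 18 tested genes had a higher mean and 7 an unadjusted p under 0.05 by edgeR. Its single edgeR call was Soat1, while 0.567% of all 17634 genes tested passed and 1108 had an unadjusted p under 0.05. The LXR genes Nr1h2 and Nr1h3 had log2 fold changes of 0.024 and 0.084 with adjusted p of 1 and 1.

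In sterol synthesis 1 of 22 tested genes passed by edgeR's quasi-likelihood test, beside 0.567% of all genes, and 20 had a higher mean. In the mevalonate pathway up to squalene, 0 of 10 tested genes passed edgeR's quasi-likelihood test, 4 had an unadjusted p under 0.05, and DESeq2's Wald test and limma voom also called 0. All 10 had a higher mean in FUN025/FUN025 eyecups, with a median log2 fold change of 0.17. Hmgcs1, a synthase early in the pathway, was at 141 ± 10.5 against 164 ± 21.6 CPM, log2 fold change 0.22 ± 0.077 SE, adjusted p = 0.489. From squalene to cholesterol, 10 of 12 genes were higher, the median was 0.15 and 1 passed, namely Dhcr7, the reductase of the last step, while DESeq2's Wald test called 2, Dhcr7 and Lss. Dhcr7 lay from 27.6 to 32.4 CPM (median 31.5) in FUN025/+ and at 36.9, 39.8, 39.6, 41.0 and 36.3 CPM in FUN025/FUN025 libraries, without overlap (log2 fold change 0.33 ± 0.056 SE, adjusted p = 0.0109), and in WT libraries at 23.9 to 26.9 CPM. Lss, which closes the sterol rings, was at 43.9 ± 4.44 against 55.2 ± 5.51 CPM, log2 fold change 0.33 ± 0.076 SE, adjusted p = 0.0872.

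Genes that handle acyl-CoA, store lipid or build it into membranes were among the rises. Soat1, which esterifies cholesterol for storage, lay from 132 to 158 CPM (median 146) in FUN025/+ and at 193, 195, 205, 194 and 192 CPM in FUN025/FUN025 libraries (log2 fold change 0.44 ± 0.05 SE, adjusted p = 0.000225). Acsl3, an acyl-CoA synthetase of growing lipid droplets, lay from 101 to 127 CPM (median 111) in FUN025/+ and at 142, 146, 146, 139.9 and 144 CPM in FUN025/FUN025 libraries (log2 fold change 0.36 ± 0.054 SE, adjusted p = 0.00286). Both genes had groups that did not overlap. Plin2, a coat protein of lipid droplets, lay from 73.8 to 106 CPM (median 84.3) in FUN025/+ and at 123, 110.1, 119, 124 and 127 CPM in FUN025/FUN025 libraries (log2 fold change 0.45 ± 0.087 SE, adjusted p = 0.0336). Pnpla3, a droplet-bound acyltransferase and lipase, lay from 1.98 to 4.57 CPM (median 3.13) in FUN025/+ and at 5.79, 6.77, 8.11, 5.46 and 7.998 CPM in FUN025/FUN025 libraries (log2 fold change 1.02 ± 0.20 SE, adjusted p = 0.0235). These calls were less firm, since that of Plin2 was lost without FUN025/+ replicate 1, 5 or 6 or FUN025/FUN025 replicate 1, 3, 4 or 5 (adjusted p from 0.0738 to 0.11) and that of Pnpla3 without FUN025/+ replicate 2 or 6 or FUN025/FUN025 replicate 2, 3 or 5 (adjusted p from 0.0613 to 0.0981).

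Of 27 tested genes for acyl-CoA, triglyceride and droplets, 3 passed, all higher, and the list's median log2 fold change was 0.088. The lipase Pnpla2 was at 66.5 ± 5.45 against 63.7 ± 3.55 CPM, log2 fold change -0.063 ± 0.058 SE, adjusted p = 1, and the triglyceride synthases Dgat1 and Dgat2 had log2 fold changes of -0.0052 and -0.023, neither near the threshold. A pair of called genes outside the lists belongs to the same field and was grouped here after its values were seen. Lpcat3, which puts polyunsaturated fatty acids into phospholipids, was at 43.3 ± 1.97 CPM (SD, n = 6) in FUN025/+ and 62.0 ± 5.21 CPM (SD, n = 5) in FUN025/FUN025 libraries (log2 fold change 0.52 ± 0.056 SE). Dbi, the acyl-CoA-binding protein, was at 95.0 ± 10.1 CPM in FUN025/+ and 124 ± 8.23 CPM in FUN025/FUN025 libraries (log2 fold change 0.38 ± 0.069 SE), while WT libraries held 114 to 143 CPM, in the range of the homozygous ones or above. The call of Dbi was lost without FUN025/+ replicate 3 or FUN025/FUN025 replicate 4 or 5 (adjusted p from 0.0516 to 0.0562). Over the 8 lipid lists, which share some genes, 15 of 114 tested genes passed, 14 of them higher, which was 13.2% beside 0.567% of all genes tested. These lists were written with earlier results of these data known, so their count is no independent evidence of a direction. The list of PPAR and fatty acid oxidation genes held 0 calls among 23 tested by edgeR's quasi-likelihood test and 0 by limma voom. DESeq2's Wald test called 1, 2 had an unadjusted p under 0.05 by edgeR, and the median was 0.027. That list is not the PPAR signalling gene set, which the paper reported as enriched in homozygous over heterozygous eyecups.

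**Figure D3:**
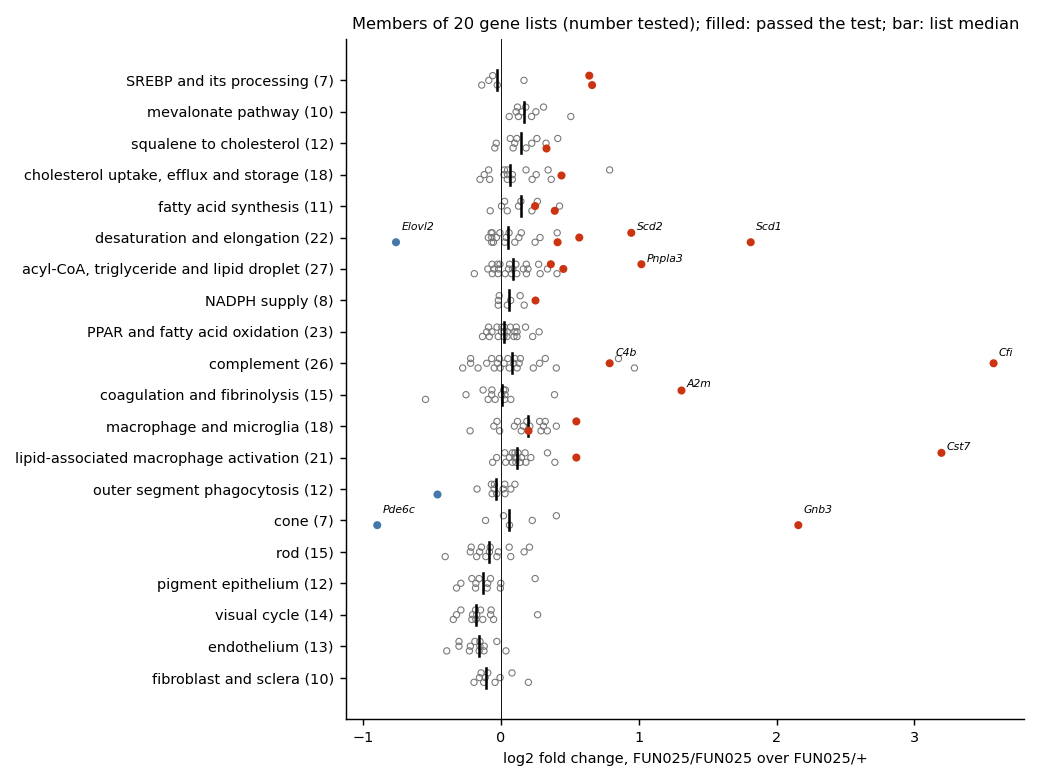
Log2 fold change of FUN025/FUN025 over FUN025/+ eyecups for every tested member of 20 gene lists, with the number tested in brackets. Filled points passed the test (red higher, blue lower), open points did not and the black bar is the list's median, which lies right of 0 in the mevalonate and squalene lists and left of it in the RPE, visual cycle and endothelium lists.

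Next to lipid genes, some genes of secreted defence proteins rose. Cfi (ENSMUSG00000058952, chr3:129835884-129875332, plus strand) encodes complement factor I, the protease that inactivates fragments of complement C3 and C4. It lay from 0.349 to 0.879 CPM (median 0.628) in FUN025/+ and at 8.55, 9.69, 9.55, 5.62 and 4.91 CPM in FUN025/FUN025 libraries (log2 fold change 3.57 ± 0.25 SE, adjusted p = 1.88e-06). No FUN025/+ library reached 1 CPM and every FUN025/FUN025 library was well above it, so that Cfi entered the test only through the homozygous group, and WT libraries held 0.166 to 0.754 CPM. C4b, a gene of complement component C4, lay from 147 to 199 CPM (median 189) in FUN025/+ and at 322, 287, 315, 366 and 286 CPM in FUN025/FUN025 libraries, without overlap (log2 fold change 0.79 ± 0.083 SE, adjusted p = 0.000225). Reads of C4b are uncertain in part, since 48.3% of its sequence in 31-base stretches also occurs in other genes. A2m (ENSMUSG00000030111, chr6:121635376-121679227, plus strand), a secreted trap for proteases that is listed here under coagulation, lay from 331 to 406 CPM (median 392) in FUN025/+ and at 846, 997, 1195, 825 and 889.9 CPM in FUN025/FUN025 libraries. Every FUN025/FUN025 library held more than 2 times the level of the FUN025/+ median (log2 fold change 1.31 ± 0.089 SE, adjusted p = 4.18e-06), and the WT libraries lay at 322 to 353 CPM.

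Of 26 tested complement genes, 2 passed, 8 had an unadjusted p under 0.05, 16 had a higher mean and the median log2 fold change was 0.078, while DESeq2's Wald test called 3. Among all 17634 genes tested, 0.567% passed and 1108 had an unadjusted p under 0.05, and of the 2 complement calls Cfi entered only through the homozygous group. C3, the hub of the cascade, was at 27.1 ± 3.83 against 29.6 ± 8.89 CPM, log2 fold change 0.13 ± 0.17 SE, adjusted p = 1. Cfd, the protease that starts the alternative pathway, was at 2.37 ± 0.461 against 4.59 ± 2.86 CPM, log2 fold change 0.97 ± 0.32 SE, adjusted p = 0.478. In the coagulation list A2m was the single call by edgeR and limma voom among 15 tested genes, with a median of 0.006, and DESeq2's Wald test called 2, A2m and Plaur. Osmr and Stat3, a receptor of the interleukin-6 family and the transcription factor below it, were noted together after their values were seen. Osmr was at 149 ± 15.5 CPM in FUN025/+ and 233 ± 34.7 CPM in FUN025/FUN025 libraries (log2 fold change 0.64 ± 0.096 SE), and Stat3 at 129.5 ± 6.67 and 171 ± 9.48 CPM (log2 fold change 0.40 ± 0.048 SE). In each gene the groups stood apart, and both genes rose by the test.

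Cst7 and Trem2 are known from macrophages and microglia that have taken up lipid. Cst7 (ENSMUSG00000068129, chr2:150570415-150578944, plus strand), which encodes cystatin F, an inhibitor of lysosomal proteases in immune cells, lay from 0.1497 to 0.821 CPM (median 0.540) in FUN025/+ and at 4.94, 4.08, 3.61, 7.86 and 3.64 CPM in FUN025/FUN025 libraries. It was under 1 CPM in all FUN025/+ and all WT libraries (0.111 to 0.332 CPM) and above it in all FUN025/FUN025 libraries (log2 fold change 3.20 ± 0.31 SE, adjusted p = 5.41e-05), so that it too entered the test only through the homozygous group. Trem2, a lipid-sensing receptor of macrophages, lay from 16.6 to 25.2 CPM (median 19.6) in FUN025/+ and at 29.5, 26.7, 31.1, 30.9 and 28.4 CPM in FUN025/FUN025 libraries, without overlap (log2 fold change 0.55 ± 0.098 SE, adjusted p = 0.015), and its call was lost without FUN025/FUN025 replicate 3 (adjusted p = 0.0622). Cd300lf, a lipid-binding receptor of myeloid cells, was at 2.83 ± 0.658 CPM in FUN025/+ and 4.86 ± 0.214 CPM in FUN025/FUN025 libraries (log2 fold change 0.77 ± 0.15 SE). The call of Cd300lf was lost without FUN025/+ replicate 2, 3, 4 or 5 or FUN025/FUN025 replicate 1, 2, 3, 4 or 5 (adjusted p from 0.0631 to 0.0937).

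In bulk eyecups, more cells of a type and more RNA per cell cannot be told apart. Of 18 tested markers of macrophages and microglia, 14 had a higher mean, 8 had an unadjusted p under 0.05, 2 passed, Trem2 among them, beside 0.567% of all genes tested, and the median log2 fold change was 0.20. Summed over the list, the level was 1099 to 1518 CPM in FUN025/+ and 1318 to 1439 CPM in FUN025/FUN025 libraries, and these ranges overlapped. None of the markers was at 0. Csf1r, the receptor macrophages need to survive, was at 257 ± 24.4 against 248 ± 17.1 CPM, log2 fold change -0.049 ± 0.065 SE, adjusted p = 1, and C1qa, a complement gene made by macrophages, at 76.1 ± 15.6 against 101 ± 6.11 CPM, log2 fold change 0.40 ± 0.12 SE, adjusted p = 0.335. With the markers' mean as a covariate, Trem2 (log2 fold change 0.43, adjusted p = 0.161) and Cd300lf (log2 fold change 0.88, adjusted p = 0.0737) did not pass. Trem2 is 1 of these markers and was partly adjusted for itself, so nothing can be read from its lost call. Cst7 passed in that fit too (log2 fold change 3.76, adjusted p = 0.00033), but nothing can be read from this, since it entered the test only through the homozygous group. In the list of lipid-associated activation, 19 of 21 tested genes had a higher mean and the median was 0.12. The 2 that passed, beside 0.567% of all genes tested, were Trem2 and Cst7, the latter let in by the homozygous libraries alone. Gpnmb was at 1598 ± 128 against 1774 ± 191 CPM, log2 fold change 0.15 ± 0.073 SE, adjusted p = 0.819, Lpl at 66.0 ± 7.91 against 71.2 ± 11.2 CPM, log2 fold change 0.11 ± 0.11 SE, adjusted p = 1 and Spp1 at 140.2 ± 28.6 against 149 ± 13.5 CPM, log2 fold change 0.084 ± 0.14 SE, adjusted p = 1. Cst7 was the single member of that list beyond 2-fold.

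**Figure D4:**
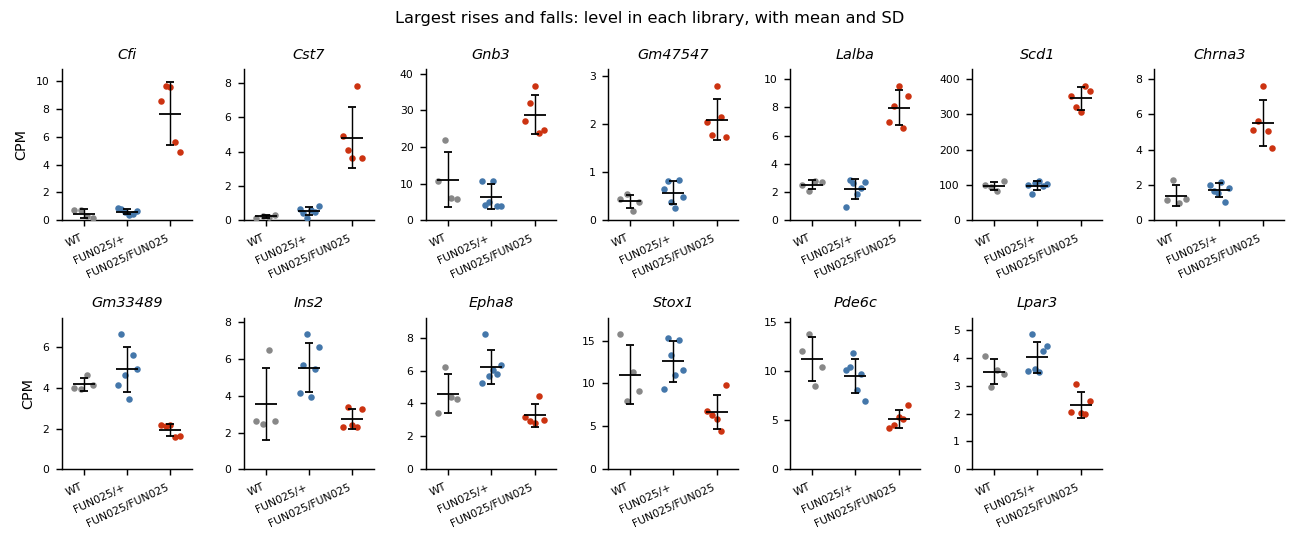
Level in each library (CPM) of 7 of the 8 largest rises and of the 6 largest falls with a mean of at least 1 CPM, with the mean and SD of 4 WT (grey), 6 FUN025/+ (blue) and 5 FUN025/FUN025 (red) libraries, every axis starting at 0. The red and blue points overlap only in Stox1.

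Gnb3 and Pde6c, both genes of cone phototransduction, moved in opposite directions. Gnb3 (ENSMUSG00000023439, chr6:124834240-124840275, minus strand), a G protein beta subunit of cones and bipolar cells, lay from 3.86 to 10.8 CPM (median 4.57) in FUN025/+ and at 27.1, 31.9, 36.8, 23.8 and 24.6 CPM in FUN025/FUN025 libraries. The groups did not overlap (log2 fold change 2.16 ± 0.31 SE, adjusted p = 0.0117), although 1 of the 4 WT libraries reached 21.8 CPM and the WT range was 5.70 to 21.8 CPM. Pde6c (ENSMUSG00000024992, chr19:38132781-38183958, plus strand), the catalytic subunit of the cone phosphodiesterase, lay from 6.90 to 11.8 CPM (median 9.89) in FUN025/+ and at 4.15, 4.46, 5.30, 5.13 and 6.54 CPM in FUN025/FUN025 libraries, every one of them under the lowest FUN025/+ library (log2 fold change -0.90 ± 0.15 SE, adjusted p = 0.0104). WT libraries held 8.47 to 13.7 CPM of Pde6c. The other 5 tested cone markers did not pass edgeR's quasi-likelihood test, although Gnat2 passed by DESeq2's Wald test and without the filter on low counts, with Gnat2, the alpha subunit of cone transducin, at 12.96 ± 2.07 against 17.2 ± 1.05 CPM, log2 fold change 0.40 ± 0.1 SE, adjusted p = 0.122, and Opn1sw, the short-wave opsin, at 3.03 ± 2.07 against 3.08 ± 2.05 CPM, log2 fold change 0.02 ± 0.55 SE, adjusted p = 1. Summed cone markers were at 55.1 to 74.1 CPM in FUN025/+ and 77.2 to 97.1 CPM in FUN025/FUN025 libraries, without overlap. Without Gnb3 the sums were 51.2 to 67.9 CPM and 53.3 to 62.4 CPM, and the groups overlapped. Rod markers, of which 0 of 15 passed by edgeR's quasi-likelihood test, DESeq2's Wald test and limma voom and 0 had an unadjusted p under 0.05, spread over a wide range in both groups.

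Chrna3 (ENSMUSG00000032303, chr9:55010111-55026562, minus strand) and Chrnb4 (ENSMUSG00000035200, chr9:55028154-55048779, minus strand), subunits of a nicotinic acetylcholine receptor, are neighbours on chromosome 9 and rose together. Chrna3 lay from 1.03 to 2.18 CPM (median 1.72) in FUN025/+ and at 5.13, 5.62, 7.62, 5.05 and 4.09 CPM in FUN025/FUN025 libraries, without overlap (log2 fold change 1.68 ± 0.19 SE, adjusted p = 0.000242). Chrnb4 was at 30.6 ± 3.10 CPM in FUN025/+ and 75.6 ± 10.9 CPM in FUN025/FUN025 libraries (log2 fold change 1.30 ± 0.091 SE, adjusted p = 5.81e-06). Kcnab1, a beta subunit of voltage-gated potassium channels, was at 26.5 ± 3.67 and 50.6 ± 5.72 CPM (log2 fold change 0.94 ± 0.094 SE).

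Other large rises fitted none of these groups. Lalba (ENSMUSG00000022991, chr15:98480400-98482721, minus strand), which encodes the milk protein alpha-lactalbumin, lay from 0.952 to 2.87 CPM (median 2.44) in FUN025/+ and at 6.97, 8.08, 9.55, 6.53 and 8.82 CPM in FUN025/FUN025 libraries (log2 fold change 1.85 ± 0.21 SE, adjusted p = 0.000225), and WT libraries lay inside the FUN025/+ range at 2.101 to 2.81 CPM. Gm47547 (ENSMUSG00000114196, chr14:41053653-41061614, plus strand), a predicted gene, lay from 0.261 to 0.845 CPM (median 0.576) in FUN025/+ and at 2.04, 1.77, 2.81, 2.15 and 1.73 CPM in FUN025/FUN025 libraries (log2 fold change 1.86 ± 0.27 SE, adjusted p = 0.00262). It entered the test only through the homozygous group, and its reads are uncertain, because 77.7% of its sequence also occurs in other genes. Lemd1 averaged 0.293 CPM in FUN025/+ and 1.48 CPM in FUN025/FUN025 libraries, and entered the test only through the latter. Of its exon sequence, 37.6% overlaps exons of another gene, counted on either strand. Its call was lost without FUN025/FUN025 replicate 2 or 3 (adjusted p from 0.0536 to 0.0557). Adam7, a membrane protein best known from the epididymis, was at 18.7 ± 2.11 and 37.2 ± 3.78 CPM (log2 fold change 0.99 ± 0.086 SE). Sulf2, which trims sulphates from heparan sulphate, was at 31.3 ± 4.07 and 58.8 ± 6.56 CPM (log2 fold change 0.91 ± 0.092 SE).

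Among the smaller rises, Ift57, a subunit of intraflagellar transport, was at 39.4 ± 3.90 and 63.0 ± 3.93 CPM in FUN025/+ and FUN025/FUN025 libraries (log2 fold change 0.68 ± 0.067 SE). E2f6, a transcriptional repressor, was at 48.7 ± 5.25 and 72.2 ± 5.80 CPM (log2 fold change 0.57 ± 0.073 SE). Pcolce, an enhancer of procollagen processing, was at 463 ± 24.4 and 656 ± 51.3 CPM (log2 fold change 0.50 ± 0.056 SE). All 3 held in every fit without 1 library. Daam1, a formin of cell polarity, rose by 0.49 and Myo5b, a motor of recycling endosomes, by 0.52 on the log2 scale. The smallest changes that passed were those of abundant genes, such as Oat, the mitochondrial ornithine aminotransferase, at 339 ± 9.62 and 384 ± 9.74 CPM (log2 fold change 0.18 ± 0.038 SE), whose call was lost in every fit that left out a library (adjusted p from 0.0669 to 0.164).

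The 37 falls had a median log2 fold change of -0.49. Gm33489 (ENSMUSG00000113252, chr13:44010592-44018522, minus strand), a predicted gene, fell most and lay from 3.49 to 6.64 CPM (median 4.78) in FUN025/+ and at 2.17, 2.15, 2.17, 1.57 and 1.64 CPM in FUN025/FUN025 libraries (log2 fold change -1.33 ± 0.18 SE, adjusted p = 0.00161). Ins2, an insulin gene, lay from 3.92 to 7.34 CPM (median 5.55) in FUN025/+ and at 2.30, 3.38, 2.41, 2.32 and 3.27 CPM in FUN025/FUN025 libraries, without overlap (log2 fold change -1.02 ± 0.19 SE, adjusted p = 0.0194). The call of Ins2 was lost without FUN025/+ replicate 3 or FUN025/FUN025 replicate 1, 3 or 4 (adjusted p from 0.0521 to 0.0773), and 3 of the 4 WT libraries lay near the homozygous level (range 2.48 to 6.47 CPM). Epha8 (ENSMUSG00000028661, chr4:136929419-136956816, minus strand), an ephrin receptor, lay from 5.27 to 8.20 CPM (median 5.92) in FUN025/+ and at 3.16, 2.92, 2.81, 4.47 and 2.999 CPM in FUN025/FUN025 libraries, without overlap (log2 fold change -0.93 ± 0.16 SE, adjusted p = 0.00976). Stox1, a transcription factor, lay from 9.30 to 15.3 CPM (median 12.5) in FUN025/+ and at 6.84, 6.31, 5.86, 4.47 and 9.82 CPM in FUN025/FUN025 libraries. The groups overlapped in this gene (log2 fold change -0.92 ± 0.18 SE, adjusted p = 0.0343), and its call was lost without FUN025/+ replicate 2, 3, 5 or 6 or FUN025/FUN025 replicate 1, 2, 3 or 4 (adjusted p from 0.0618 to 0.134). Lpar3, a receptor of lysophosphatidic acid, lay from 3.49 to 4.84 CPM (median 3.91) in FUN025/+ and at 2.04, 3.08, 2.01, 1.99 and 2.45 CPM in FUN025/FUN025 libraries (log2 fold change -0.79 ± 0.16 SE, adjusted p = 0.0402), and its call was lost without FUN025/+ replicate 2, 3, 5 or 6 or FUN025/FUN025 replicate 1, 3, 4 or 5 (adjusted p from 0.0649 to 0.136).

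Itgav, the integrin alpha subunit with which RPE cells bind shed outer segments, was called. It was the single call among 12 tested genes of outer segment phagocytosis, beside 0.567% of all genes tested. It lay from 457 to 648 CPM (median 564) in FUN025/+ and at 369, 422, 402, 386 and 426 CPM in FUN025/FUN025 libraries, without overlap (log2 fold change -0.46 ± 0.082 SE, adjusted p = 0.0166), and its call was lost without FUN025/+ replicate 3 or FUN025/FUN025 replicate 1, 3 or 4 (adjusted p from 0.0516 to 0.0659). Its partner Itgb5 was at 226 ± 18.3 against 217 ± 5.05 CPM, log2 fold change -0.062 ± 0.053 SE, adjusted p = 1, and Mertk, the receptor that triggers engulfment, at 160.5 ± 19.7 against 142 ± 14.6 CPM, log2 fold change -0.17 ± 0.087 SE, adjusted p = 0.873. Neither of these passed, and the median log2 fold change of the list was -0.037.

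The other falls were grouped after their values were seen. Several encode transporters and channels. Slc22a8, an organic anion transporter, was at 164 ± 12.9 CPM in FUN025/+ and 115 ± 13.2 CPM in FUN025/FUN025 libraries (log2 fold change -0.51 ± 0.076 SE). Slc6a13, a transporter of GABA and taurine, was at 319 ± 37.3 and 234 ± 26.8 CPM (log2 fold change -0.45 ± 0.088 SE). Asic2, an acid-sensing channel, was at 11.9 ± 1.29 and 7.67 ± 0.378 CPM (log2 fold change -0.64 ± 0.095 SE), and Cldn2, a pore-forming tight junction protein, at 96.7 ± 8.96 and 73.7 ± 4.87 CPM (log2 fold change -0.39 ± 0.064 SE). Others encode receptors for hormones, with Vipr2, a receptor of vasoactive intestinal peptide, at 31.03 ± 3.74 and 21.8 ± 1.83 CPM (log2 fold change -0.51 ± 0.087 SE). Crhr2, a receptor of urocortins, was at 23.9 ± 2.23 and 16.98 ± 2.46 CPM with overlapping groups (log2 fold change -0.49 ± 0.095 SE). Dgkb, a diacylglycerol kinase, was at 13.5 ± 2.04 and 8.03 ± 0.808 CPM (log2 fold change -0.75 ± 0.11 SE). Sostdc1, a secreted antagonist of BMP and Wnt signals, was at 130.1 ± 13.8 and 91.2 ± 6.24 CPM (log2 fold change -0.51 ± 0.07 SE), and Fbn1, the microfibril protein fibrillin-1, at 401 ± 34.3 and 324 ± 14.6 CPM (log2 fold change -0.31 ± 0.059 SE), with 20.1% of its exons overlapping another gene. The call of Slc6a13 was lost without FUN025/+ replicate 1, 3, 5 or 6 or FUN025/FUN025 replicate 1, 2, 3 or 4 (adjusted p from 0.0522 to 0.121), that of Crhr2 without FUN025/+ replicate 2, 3, 5 or 6 or FUN025/FUN025 replicate 1, 2, 3 or 4 (adjusted p from 0.0545 to 0.0953) and that of Fbn1 without FUN025/+ replicate 3 or FUN025/FUN025 replicate 1, 3 or 5 (adjusted p from 0.0518 to 0.0845).

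As to their cell source, 4 of the 100 called genes were on any of 17 marker lists for cell types, among them Gnb3 and Pde6c for cones and Trem2 for macrophages. Those 4 were 2.86% of the 140 tested markers, beside 0.567% of all genes tested. RPE markers leaned lower without a call. Of 12 tested, 0 passed by edgeR's quasi-likelihood test, DESeq2's Wald test and limma voom, 5 had an unadjusted p under 0.05, 10 had a lower mean, and the median log2 fold change was -0.13. Rpe65, the isomerase of the visual cycle, was at 2229 ± 295 against 1786 ± 239 CPM, log2 fold change -0.32 ± 0.10 SE, adjusted p = 0.43. Ttr, a carrier of thyroid hormone and retinol, was at 5842 ± 664 against 6947 ± 648 CPM, log2 fold change 0.25 ± 0.085 SE, adjusted p = 0.463, with the opposite sign. Genes of the visual cycle, many of them RPE genes, showed the same lean, with 13 of 14 lower, 0 passing by edgeR and by limma voom, 1 by DESeq2's Wald test, 6 at an unadjusted p under 0.05 by edgeR and a median of -0.18.

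Endothelial markers also leaned lower, with 12 of 13 having a lower mean, 0 passing by edgeR and by limma voom, 1 by DESeq2's Wald test, 6 at an unadjusted p under 0.05 by edgeR and a median of -0.16. Among all 17634 genes tested, 0.567% passed by edgeR and 1108 had an unadjusted p under 0.05. The endothelial markers summed to 1281 to 1715 CPM in FUN025/+ and 1176 to 1423 CPM in FUN025/FUN025 libraries, and the ranges overlapped. Ramp2, a receptor partner needed by vessels, was at 93.4 ± 13.9 against 71.2 ± 4.07 CPM, log2 fold change -0.39 ± 0.09 SE, adjusted p = 0.103. Fibroblast and sclera markers had a median of -0.10 and those of melanocytes -0.027, with 0 calls in 10 and 8 tested genes by edgeR, DESeq2 and limma voom and 0 at an unadjusted p under 0.05 by edgeR. With the mean of the RPE markers as a covariate, an alternative chosen after seeing the data, 141 genes passed, 84 of them among the 100. Scd1 (log2 fold change 1.75, adjusted p = 5.31e-06), Srebf1 (log2 fold change 0.67, adjusted p = 5.22e-05) and Elovl2 (log2 fold change -0.65, adjusted p = 0.000171) kept their calls in that fit. With the macrophage markers as a covariate, 73 of the 100 passed, and of the lipid genes Plin2 (log2 fold change 0.29, adjusted p = 0.171) and Pnpla3 (log2 fold change 0.90, adjusted p = 0.18) did not, while Scd1 (log2 fold change 2.01, adjusted p = 2.5e-08) did.

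**Figure D5:**
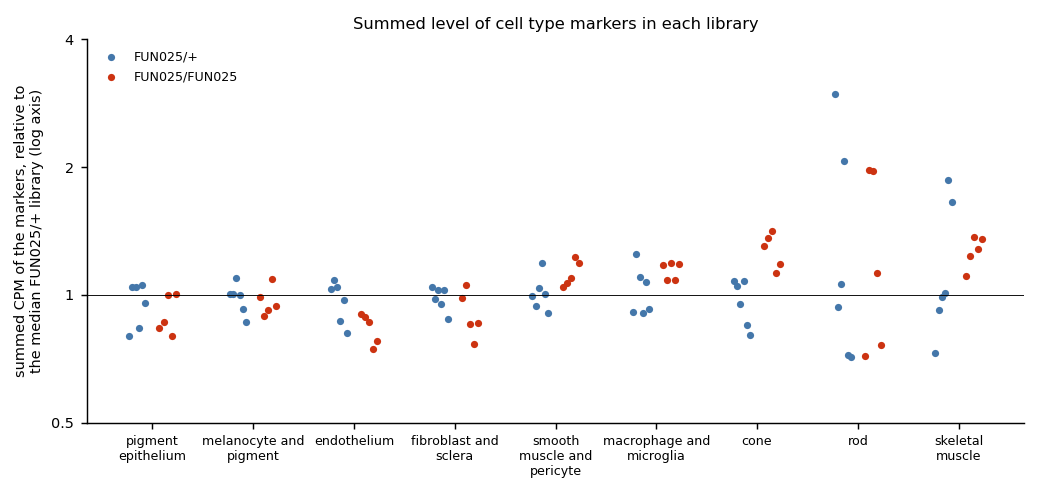
Summed CPM of the markers of 9 cell types in each FUN025/+ (blue) and FUN025/FUN025 (red) library, relative to the median FUN025/+ library (log axis). The groups overlap in every list but that of cones, which includes Gnb3 and overlaps without it, and rod and skeletal muscle markers spread most between libraries of a group.

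Several other lists gave no call by edgeR's quasi-likelihood test, and limma voom also called 0 in each of them. Of 13 genes of mitochondrial fission and fusion, 0 passed by edgeR and DESeq2, 1 had an unadjusted p under 0.05, and the median log2 fold change was 0.036. Of 27 peroxisome genes, 0 passed by edgeR and DESeq2, 1 had an unadjusted p under 0.05, and the median was 0.011. The integrated stress and unfolded protein response had 0 calls in 19 genes by edgeR and DESeq2 and 0 at an unadjusted p under 0.05. NRF2 and antioxidant genes had 0 calls in 14 by edgeR and 1 by DESeq2, with 2 at an unadjusted p under 0.05. Interferon-stimulated genes had 0 calls in 15 by edgeR and 1 by DESeq2, 1 at an unadjusted p under 0.05 and a median of 0.13. Antigen presentation genes had 0 calls in 13 by edgeR and DESeq2, 0 at an unadjusted p under 0.05 and a median of 0.17. Clock genes (16 tested) and immediate early genes (12 tested) had 0 calls by edgeR and DESeq2, 0 at an unadjusted p under 0.05 and medians of 0.013 and 0.034. A missed threshold does not show that these genes were equal between the groups.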

How the data were processed

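Posterior eyecups were sequenced from 15 mice with 1 library per mouse, and the 6 FUN025/+ and 5 FUN025/FUN025 libraries were compared. The authors deposited raw read counts for 55421 Ensembl genes per library, without normalization. The submitters' processing notes name FastQC 0.11.8, Trimmomatic 0.39, HISAT2 2.1.0, SAMtools, featureCounts 2.0.0 and the build GRCm38. The strand setting and the annotation release are not given in the sources used here, so overlapping and antisense genes were not told apart. GENCODE M21 (GRCm38) gave symbols and positions for 55240 of the genes.

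CPM is the count of a gene per 1000000 counts of a library, and printed levels include TMM scaling (WT levels by factors from all 15 libraries). Genes with at least 1 CPM in at least 5 of the 11 libraries were tested with TMM scaling, genotype alone in the model, and edgeR's robust quasi-likelihood test (edgeR 4.0.16, two-sided) with Benjamini-Hochberg adjustment and a threshold of 0.05. Every library is a different mouse, and sex was not in the model. The fit was tested on simulated data. The members and gene lists were chosen with earlier results of these data known. Per-library values are given for Tmem135, for the 8 largest rises and 6 largest falls with a mean of at least 1 CPM, and for called members of the lists, and other called genes by group levels. Values of some genes that this rule or the lists name are not reported here, although counts and medians include them. No list was tested as a set. Alternatives were other scalings, DESeq2 1.42.0, limma 3.58.1, other filters, WT libraries in the fit, the replicate number as a block, covariates and leaving out each library. Marker covariates were the mean log2 CPM of a list (prior count 2). The programs were R 4.3.3, Python 3.11.15, pandas 2.3.3, numpy 2.4.6 and scipy 1.17.1.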

Additional observations from a re-analysis of the deposited data

Results flagged for a closer look

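In 196 groups of libraries (FUN025/+ and FUN025/FUN025 for Tmem135 and the called genes reported here, 98 genes in all), 1 library stood apart from the rest of its group by Dixon's test at the 95% level in 10, or 5.10%, and chance alone gives about 5%. Among FUN025/FUN025 libraries, replicate 3 was high for Chrnb4 at 94.5 CPM and for Soat1 at 205 CPM and replicate 4 for Epha8 at 4.47 CPM. Among FUN025/+ libraries, replicate 1 was high for Stat3 at 142 CPM and low for Gm34583 at 3.08 CPM and for Crhr2 at 19.6 CPM. Replicate 2 was high for Epha8 at 8.20 CPM and replicate 4 for Gm47887 at 1.83 CPM. Replicate 6 was low for Mmd at 27.2 CPM and high for Myo5b at 63.7 CPM.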

How the results depend on the processing

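No called gene changed sign in any of 18 alternatives or 11 fits without 1 library, and 49 of 100 were called in every one of these that tested them. DESeq2's Wald test called 167 genes, 76 of them lower, and all 100 were among them. Blocking on the replicate number, edgeR called 146 genes, 72 of them lower, and 85 of the 100 remained, with the call of Gnb3 among those lost and 7 in place of 3 calls in the sterol lists. Same-numbered libraries are different mice, the correlations of their deviations ran from -0.050 to 0.19, and 2 of 5 correlated best with their own number. With macrophage markers as a covariate, 139 genes were called, 86 lower and 27 beyond 2-fold, and the median log2 fold change of the sterol lists (29 genes, those of SREBP processing included) went from 0.15 to 0.24 and that of the photoreceptor lists from -0.052 to 0.83. With RPE markers as a covariate, added after seeing the data, 141 genes were called, 107 higher, and Tmem135 passed with a log2 fold change of 0.31, as it did at 0.24 with no filter on low counts. A minimum of 10 counts in every library left 12 genes beyond 2-fold, since it removes genes near 0 in FUN025/+ libraries. The cause of the other shifts was not tested. Without 1 library, 67 to 108 genes were called (lowest without FUN025/FUN025 replicate 3), 44 to 62 higher, 14 to 48 lower and 13 to 19 beyond 2-fold. The count of lower genes was 24 or fewer without any 1 of FUN025/+ replicates 2, 3, 5 and 6 or FUN025/FUN025 replicates 1 to 4, and was lowest without FUN025/FUN025 replicate 1. The log2 fold change of Tmem135 was then 0.20 to 0.28 and passed without FUN025/+ replicate 5, and the median log2 fold changes were 0.11 to 0.20 for the sterol, 0.065 to 0.12 for the fatty acid, 0.18 to 0.24 for the macrophage and -0.22 to 0.38 for the photoreceptor lists. Genes under about 1 CPM rest on few counts, and p-values measure the spread between these mice only.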

Other observations

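Smooth muscle markers leaned higher in FUN025/FUN025 eyecups, with 6 of 8 having a higher mean, 0 called by edgeR's quasi-likelihood test, DESeq2's Wald test and limma voom, 2 at an unadjusted p under 0.05 and a median log2 fold change of 0.27. Of all 17634 genes tested, 1108 had an unadjusted p under 0.05 by edgeR. Cnn1, calponin, was at 10.7 ± 1.79 against 14.6 ± 3.88 CPM, log2 fold change 0.45 ± 0.16 SE, adjusted p = 0.509, and Myh11, the smooth muscle myosin, at 207 ± 66.8 against 314 ± 129 CPM, log2 fold change 0.61 ± 0.30 SE, adjusted p = 0.87. Lens genes varied most between libraries, with sums of 3.76 to 86.2 CPM in FUN025/+ and 3.77 to 184 CPM in FUN025/FUN025 libraries, and Cryaa, a lens crystallin, was at 10.7 ± 18.0 against 35.9 ± 50.9 CPM, log2 fold change 1.71 ± 1.42 SE, adjusted p = 1. Of 7 listed adipocyte markers, 2 were tested and 0 were called by any of these tools, with 1 of them at an unadjusted p under 0.05 by edgeR's quasi-likelihood test. Both had a higher mean, with a median log2 fold change of 0.67. They summed to 2.13 to 4.32 CPM in FUN025/+ and 3.93 to 10.7 CPM in FUN025/FUN025 libraries, and the ranges overlapped. Neural genes among the calls went in both directions, with Chrna3, Chrnb4 and Kcnab1 higher and Cntnap2 (log2 fold change -0.40 ± 0.075 SE), Olfm1 (-0.32 ± 0.045 SE), Nyap2 (-0.54 ± 0.097 SE), Lrtm2 (-0.51 ± 0.084 SE) and Cacna1h (-0.71 ± 0.15 SE) lower, a grouping made after the values were seen. The call of Cntnap2 was lost without FUN025/+ replicate 3, 5 or 6 or FUN025/FUN025 replicate 1, 2 or 4 (adjusted p from 0.0501 to 0.0834), that of Nyap2 without FUN025/FUN025 replicate 1 (adjusted p = 0.0605) and that of Cacna1h without FUN025/+ replicate 2, 4, 5 or 6 or FUN025/FUN025 replicate 1, 2, 3 or 5 (adjusted p from 0.0658 to 0.119).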
